A study of Mus musculus with 4 samples.

Results

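The cytosolic ribosomal protein genes encode the protein part of the ribosome that translates nuclear-encoded mRNAs. Members were taken from the table of gene values by name, as symbols of Rpl or Rps followed by a number and at most 1 of the letters a, x, y or l, with or without a further number, together with Rpsa, Rplp0, Rplp1 and Rplp2, and names marked as pseudogenes (-ps) were left out. This gave 76 of the 18364 genes in the table, of which 45 encode proteins of the large subunit and 31 proteins of the small subunit. The RNA came from large peritoneal macrophages (LPMs), which live in the serous fluid around the abdominal organs of the mouse and were double-sorted as F4/80+ MHCII-negative CD102+ cells. All mice were C57BL/6 and aged 8 weeks. One group was labelled wild type (WT) and the other Rxra-/-, here called Rxra-KO, with 2 libraries each. By the methods of the study, the knockout carried Rxra fl/fl alleles deleted by Cre under the LysM (Lyz2) promoter, so deletion was limited to myeloid cells that use this promoter, and the controls were Rxra fl/fl littermates. The labels do not say whether a library came from a single mouse, so p-values speak only for these samples, whose spread may be technical. The p-values and standard errors of the main fit rest mostly on a spread pooled over genes of similar level, not on each gene's own.

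The ribosome has a small subunit, which binds the mRNA and reads its codons, and a large subunit, which joins amino acids into protein. Each mature ribosome holds a single copy of nearly every ribosomal protein, the acidic stalk proteins P1 and P2 being present in pairs, and the mRNAs of these proteins share a pyrimidine-rich start called the 5′ terminal oligopyrimidine (TOP) motif, through which mTORC1 and LARP1 control their translation. Retinoid X receptor alpha (RXRα, encoded by Rxra) is a nuclear receptor that binds DNA as a dimer with itself or with other nuclear receptors.

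The 4 libraries held between 629030 and 1047021 reads assigned to genes, so that a gene with a mean of 100 reads was near the upper end of the range: 1373 genes outside the set reached it, and 32 of the 76 members did. Rxra itself was counted 20 and 28 times in WT and 33 and 77 times in Rxra-KO, so its reads were not lower there. The value for the whole gene does not show whether a deleted exon is present, so these counts do not check the label. Rxra-KO stands throughout for the libraries labelled Rxra-KO. Where reads are not named, values are the deposited normalized signal, in which 1 read was worth between 0.993 and 1.51 depending on the library. Of the 14 LPM markers in the table, 8 were called lower and 0 higher in the libraries labelled Rxra-KO (limma), their summed values being 40160 and 42710 in WT against 20970 and 23350. Most of each sum came from Prg4, with values of 28429 and 29683 in WT against 15129 and 16567 in Rxra-KO. Of 12 markers of small peritoneal macrophages and monocytes, 7 were called higher, with summed values of 465 and 281 in WT against 4398 and 5913. The defining LPM gene Gata6 had 35 and 65 reads in WT against 3 and 24 in Rxra-KO. The pan-macrophage genes Csf1r and Cd68, counted among the 14 LPM markers, were detected in all 4 libraries and were not called. Both Rxra-KO libraries lay below both WT libraries in 9 of the 14 LPM markers and above them in 3, Csf1r and Cd68 among the latter. Summed values of the 8 B cell markers in the table were 105 and 106 in WT against 145 and 105 in Rxra-KO. Cd79a had at most 3 reads in any library, Cd22 and Cr2 had 23 to 53, and Ms4a1 (0 and 1 against 5 and 5 reads) and Blk (7 and 1 against 11 and 11) were higher in both Rxra-KO libraries but were not called (limma adjusted p = 0.335 and 0.490).

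Ribosomal protein transcripts took a smaller share of the reads in Rxra-KO. They made up 4.26% and 5.20% of the reads of the WT libraries and 2.47% and 3.09% of those of the Rxra-KO libraries. Both Rxra-KO values were below both WT values, with means of 4.73% ± 0.663 (SD, n = 2) in WT and 2.78% ± 0.439 (SD, n = 2) in Rxra-KO, so that the Rxra-KO mean was 58.8% of the WT mean. With 2 libraries against 2, the smallest p of a two-sided exact permutation test is 0.33, so the difference in share cannot pass a threshold of 0.05 on its own. In bulk RNA, fewer cells that express a gene and less of its RNA per cell cannot be told apart.

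**Figure D1:**
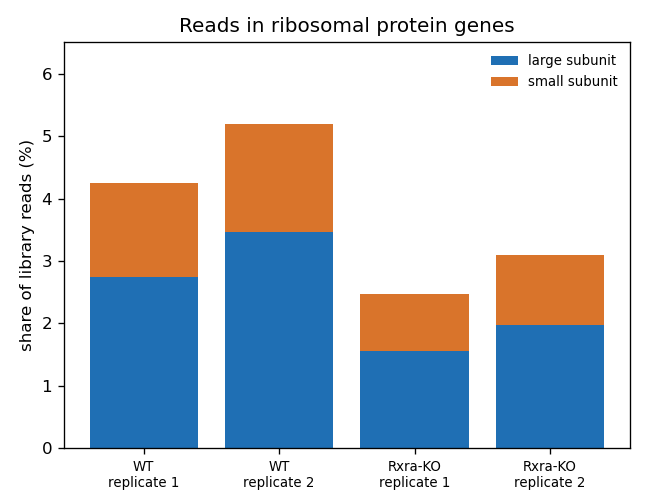
Share of each library's gene-assigned reads, in percent, that fell in ribosomal protein genes, stacked by subunit. The bars of the 2 WT libraries reach 4.26% and 5.20% and those of the 2 Rxra-KO libraries 2.47% and 3.09%, and both colours are shorter in Rxra-KO.

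In the fit over all genes, a gene was called when limma's Benjamini-Hochberg adjusted p was under 0.05 and the absolute log2 fold change was at least 0.6, and fold changes are on the scale of log2(value + 1), Rxra-KO over WT. By this rule 16 of the 76 members (21.1%) were called lower, against 0.969% of all genes, and 0 members were called higher, against 1.32% of all genes. No member reached an unadjusted p under 0.05 in the higher direction in limma (0 members), and edgeR and DESeq2 also made all of their 14 and 12 calls among the members in the lower direction. The log2 fold change was negative in 68 members and positive in 8, with a median of −0.65 (quartiles −0.81 and −0.37), while the median over all genes was 0.02. Both Rxra-KO libraries lay below both WT libraries in 55 members (72.4%), against 19.3% of all genes.

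These counts were also set beside genes of similar abundance. Among the 1373 genes outside the set with a mean of at least 100 reads, 5.75% were called lower, 22.9% had both Rxra-KO libraries below both WT libraries, and the median log2 fold change was 0.06. Among the 32 members with at least 100 reads, 13 were called lower, 31 had both Rxra-KO libraries below both WT libraries and the median was −0.70. Among the 44 members with fewer reads, 3 were called, 24 had non-overlapping lower values and the median was −0.54. The 8 members with a positive fold change were all in the group with fewer reads.

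The members moved together from library to library as well as between groups. Relative to the mean of the WT libraries on the log2 scale, the median member stood at −0.23 in WT replicate 1, 0.23 in WT replicate 2, −0.84 in Rxra-KO replicate 1 and −0.47 in Rxra-KO replicate 2. Genes outside the set with at least 100 reads had medians of −0.03, 0.03, −0.01 and 0.12 in the same libraries. Rxra-KO replicate 1 was the lowest library in 56 members, WT replicate 1 in 11, Rxra-KO replicate 2 in 8 and WT replicate 2 in 1. WT replicate 2 was the highest library in 62 members and Rxra-KO replicate 1 in 0. The libraries of each group thus differed in the level of the set, and WT replicate 1 and Rxra-KO replicate 2 stood closest to each other. Without WT replicate 2, 1 member remained called, and without Rxra-KO replicate 1, 3 did, whereas 23 were called without Rxra-KO replicate 2 and 12 without WT replicate 1. The median log2 fold change ranged from −0.84 to −0.47 when 1 library at a time was left out, and all 16 called members kept a negative fold change in each of these fits.

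**Figure D2:**
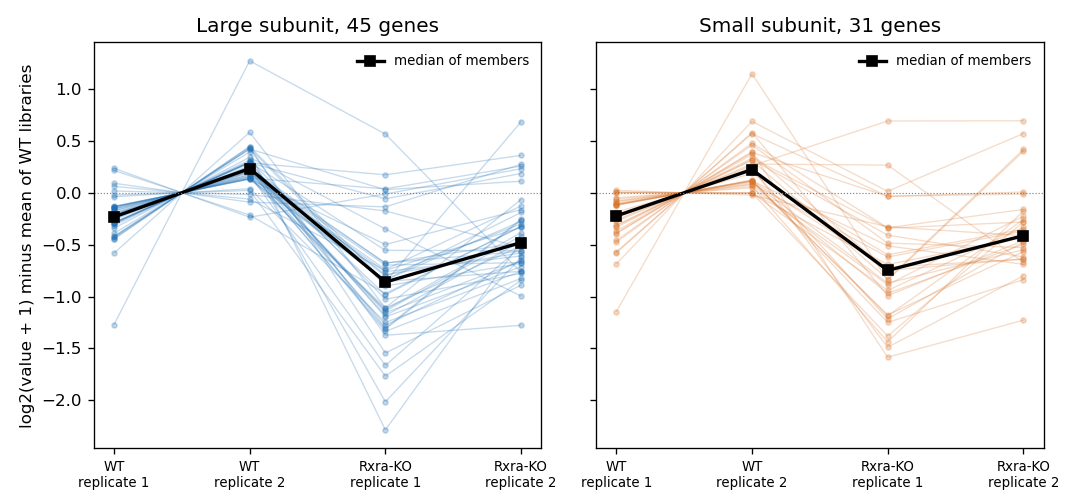
Log2(value + 1) of each member in the 4 libraries, minus the mean of the WT libraries, for the 45 large subunit and the 31 small subunit genes. Each thin line joins the values of 1 gene and the black squares are the medians over genes, which lie highest in WT replicate 2 and lowest in Rxra-KO replicate 1 in both panels.

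The start sites of members are shown because the TOP motif is what these mRNAs are known to share. Promoter sequences of RefSeq (mouse build GRCm38.p6) were matched by symbol for 57 of the 76 members, with 67 start sites. A run of at least 8 pyrimidines beginning with C, located from 20 bases before to 30 bases after the annotated start, was present in 34 of the 57 members (59.6%) and in 17.8% of the 27025 genes with a RefSeq promoter. It was present in 6 of the 12 called members with an entry and in 28 of the 45 members that were not called. The 4 called members with the largest fall whose run lies inside the window, and then the 4 members with the highest fold change that meet the same condition, are given 5′ to 3′ from 40 bases before to 30 bases after the start, with the run in capitals.
Rpl13a (chr7:45128716-45128785, minus strand, called lower): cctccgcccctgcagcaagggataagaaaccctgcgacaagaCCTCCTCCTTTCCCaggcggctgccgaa
Rpl31 (chr1:39367811-39367880, plus strand, called lower): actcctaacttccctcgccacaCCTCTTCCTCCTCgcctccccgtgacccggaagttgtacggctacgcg
Rpl5 (chr5:107900488-107900557, plus strand, called lower): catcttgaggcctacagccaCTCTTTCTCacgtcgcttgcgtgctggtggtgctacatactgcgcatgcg
Rpl4 (chr9:64173347-64173416, plus strand, called lower): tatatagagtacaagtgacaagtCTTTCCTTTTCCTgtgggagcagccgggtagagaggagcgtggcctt
Rps27l (chr9:66946046-66946115, plus strand, not called): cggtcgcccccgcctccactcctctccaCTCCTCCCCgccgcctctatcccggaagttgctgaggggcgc
Rpl18 (chr7:45718031-45718100, plus strand, not called): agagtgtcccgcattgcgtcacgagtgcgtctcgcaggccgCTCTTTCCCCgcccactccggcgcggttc
Rpl10a (chr17:28328525-28328594, plus strand, not called): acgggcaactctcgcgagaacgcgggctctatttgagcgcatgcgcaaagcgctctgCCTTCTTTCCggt
Rpl13 (chr8:123102310-123102379, plus strand, not called): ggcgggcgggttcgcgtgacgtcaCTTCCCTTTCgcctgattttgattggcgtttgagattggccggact
The run was thus found among members on both sides of the call. In Rpl31, Rpl5, Rpl4, Rps27l and Rpl13 the printed run ends before the annotated start, so by that start it lies outside the mRNA. In Rpl10a it begins 17 bases after the start. A run in capitals is therefore not by itself a TOP motif.

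Other motifs were searched on both strands of the whole promoter, from 250 bases before to 50 bases after the start. The ETS motif CCGGAAG was present in 23 of the 57 members (40.4%) and in 9.93% of all genes with a promoter, and it overlapped the pyrimidine run at 1 start. The SP1 motif GGGCGG was present in 64.9% of members and 38.2% of all genes, the YY1 core AAGATGG in 15.8% and 7.28%, and the E-box CACGTG, which MYC and its partners bind, in 8.77% and 8.09%. Direct repeats of AGGTCA spaced by 1 base (DR1) or by 5 bases (DR5), which RXR dimers are known to bind, were found in 0 members, and in 0.0481% and 0.0111% of all genes. Exact matches were so rare, in 13 and 3 of the 27025 genes, that 0 among 57 members says nothing about the set. These are matches of letters in a short window and not sites of binding.

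Among large subunit genes, 12 of 45 were called lower and the rest were not called. Rpl12, whose protein lies at the base of the stalk, had values of 207 and 213 in WT against 61.0 and 117 in Rxra-KO. The groups did not overlap, and the log2 fold change was −1.30 ± 0.27 (SE; limma adjusted p = 0.000301). Rpl12 was the member that remained called without WT replicate 2, but it lost its call without Rxra-KO replicate 1 (−0.84, limma adjusted p = 0.263). Rpl37a had values of 44.7 and 77.6 in WT against 11.3 and 42.2 in Rxra-KO, so the Rxra-KO libraries were far apart. Its log2 fold change of −1.38 ± 0.40 (SE; limma adjusted p = 0.0323) was −0.47 without Rxra-KO replicate 1, and Rpl37a was not called with edgeR (adjusted p = 0.100), DESeq2 (adjusted p = 0.727) or voom (adjusted p = 0.0767). Rpl13a, known for a role in silencing inflammatory mRNAs in myeloid cells, had values of 67.4 and 125 in WT against 30.9 and 49.2 in Rxra-KO, with a log2 fold change of −1.22 ± 0.33 (SE; limma adjusted p = 0.0170), and was not called with DESeq2 (adjusted p = 0.202).

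Other large subunit genes among the 6 called ones with the largest falls were measured with more reads. Rpl22l1, Rpl32 and Rpl39 had log2 fold changes of −1.32, −1.32 and −1.09 from fewer reads and were not called. Rpl23, whose protein binds the p53 ligase MDM2, had values of 3295 and 4443 in WT against 1515 and 2159 in Rxra-KO. Its log2 fold change was −1.08 ± 0.22 (SE; limma adjusted p = 0.000183). Rpl31, which lies near the exit of the nascent peptide tunnel, had values of 240.0 and 253 in WT against 103 and 146 in Rxra-KO. The fold change of Rpl31 was −1.003 ± 0.26 on the log2 scale (SE; limma adjusted p = 0.00734), and both genes had non-overlapping groups.

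Rpl5 and Rpl11 form, with 5S rRNA, the particle that is built into the large subunit and that binds MDM2 when assembly is disturbed. Rpl5 had values of 6825 and 9486 in WT against 3322 and 5122 in Rxra-KO, with a log2 fold change of −0.96 ± 0.23 (SE; limma adjusted p = 0.00296). Rpl11 had values of 600 and 726 in WT against 302 and 506 in Rxra-KO, with a log2 fold change of −0.75 ± 0.22 (SE; limma adjusted p = 0.0417). Both genes of this particle were thus called, with groups that did not overlap, but Rpl11 was not called with edgeR (adjusted p = 0.0813) or DESeq2 (adjusted p = 0.165). Rpl3, close to the peptidyl transferase centre, had values of 5638 and 6924 in WT against 2890 and 4383 in Rxra-KO, which gave a log2 fold change of −0.81 ± 0.23 (SE; limma adjusted p = 0.0212). Rpl22, which has a known role in T cell development, had values of 254 and 364 in WT against 133 and 219 in Rxra-KO, which gave a log2 fold change of −0.83 ± 0.25 (SE; limma adjusted p = 0.0417) that was not called with edgeR (adjusted p = 0.0561) or DESeq2 (adjusted p = 0.219). Of the other called large subunit genes, Rpl21 and Rpl4 had log2 fold changes of −0.95 and −0.81.

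The acidic stalk, which recruits elongation factors, is made of Rplp0, Rplp1 and Rplp2. Rplp0 had values of 606 and 557 in WT against 346 and 461 in Rxra-KO, groups that did not overlap, with a log2 fold change of −0.54 ± 0.22 (SE; limma adjusted p = 0.291). Rplp1 had values of 46.2 and 72.1 in WT against 27.9 and 33.3 in Rxra-KO, with a log2 fold change of −0.90 ± 0.37 (SE; limma adjusted p = 0.284). Rplp2 had 0 and 8 reads in WT against 3 and 1 reads in Rxra-KO, too few to read a direction. None of the 3 stalk genes was called with limma, edgeR or DESeq2, although Rplp0 and Rplp1 had unadjusted limma p-values of 0.0164 and 0.0155.

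Among small subunit genes, 4 of 31 were called lower. Rps16, at the decoding face of the subunit, had values of 47.7 and 83.0 in WT against 20.3 and 26.3 in Rxra-KO. Its log2 fold change of −1.41 ± 0.38 (SE; limma adjusted p = 0.0166) had the largest size among called members, but Rps16 was not called with DESeq2 (adjusted p = 0.182). Rps25, needed for translation from several internal ribosome entry sites, had values of 1659 and 2260 in WT against 833 and 1394 in Rxra-KO. The log2 fold change of Rps25 was −0.84 ± 0.22 (SE; limma adjusted p = 0.00864). Rps3, a protein at the mRNA entry channel, had values of 4393 and 4901 in WT against 2369 and 3292 in Rxra-KO, with a log2 fold change of −0.73 ± 0.22 (SE; limma adjusted p = 0.0472). All 4 called genes had both Rxra-KO libraries below both WT libraries.

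Some well-known small subunit genes lay on the other side of the call. Rpsa, the laminin receptor protein, had values of 3311 and 3802 in WT against 1940 and 2426 in Rxra-KO. It was the uncalled member with the lowest adjusted p, with a log2 fold change of −0.71 ± 0.22 (SE; limma adjusted p = 0.0547), and it was called with edgeR (adjusted p = 0.0392) and DESeq2 (adjusted p = 0.0119). Rps6, the substrate of S6 kinase, had values of 120 and 228 in WT against 118 and 115 in Rxra-KO, with a log2 fold change of −0.51 ± 0.27 (SE; limma adjusted p = 0.529), so that WT replicate 1 stood beside the Rxra-KO libraries. Rps27a, made as a fusion with ubiquitin, had values of 55.3 and 108 in WT against 61.0 and 69.0 in Rxra-KO, which overlapped. Rps24, a gene of Diamond-Blackfan anaemia, had a larger log2 fold change of −1.14 ± 0.36 (SE) from fewer reads and was not called (limma adjusted p = 0.0691).

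**Figure D3:**
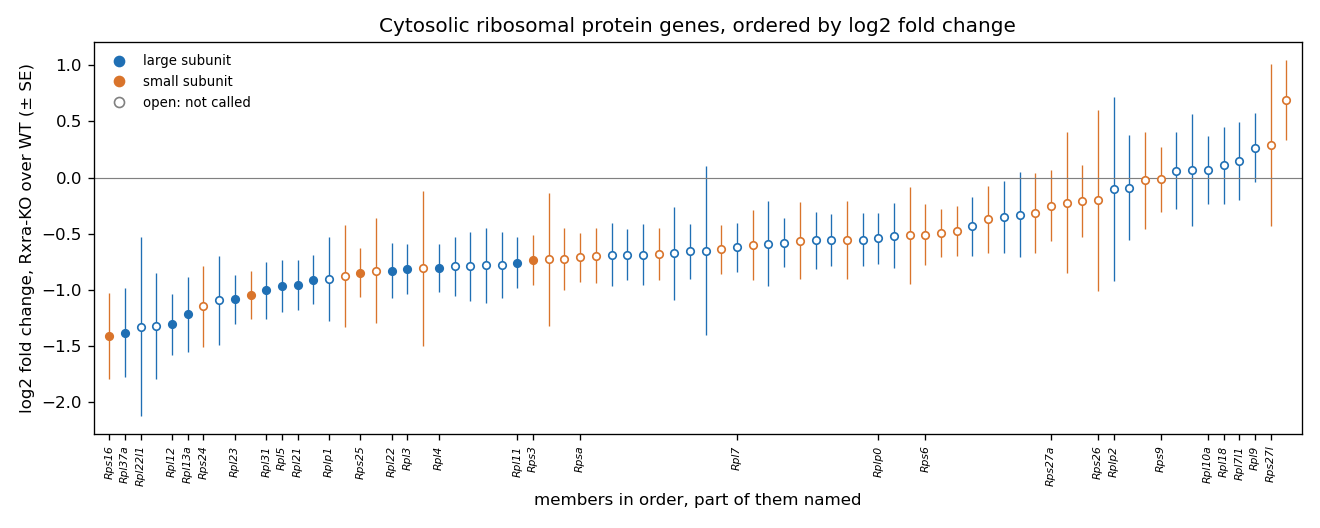
Log2 fold change of each member, Rxra-KO over WT, with its limma standard error, ordered from the lowest to the highest with names for part of them, in blue for the large and orange for the small subunit. Filled points are the 16 called members, 12 blue and 4 orange, and 8 genes lie above 0, none of them called.

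The subunits were compared next. The median log2 fold change was −0.68 in large and −0.56 in small subunit genes, a difference of −0.12. The share called lower was 26.7% of large and 12.9% of small subunit genes, and both Rxra-KO libraries lay below both WT libraries in 34 of 45 large (75.6%) and 21 of 31 small (67.7%) subunit genes. Large subunit genes also had more reads, with a median of 86.0 against 59.8 and a median standard error of 0.29 against 0.32. Among members with at least 100 reads the medians were −0.75 in 21 large and −0.69 in 11 small subunit genes, a difference of −0.06, with 10 and 3 calls and with non-overlapping lower values in 20 and 11 genes. The difference between subunits was thus smaller in genes measured with more reads. It was −0.07 without Rxra-KO replicate 1 and −0.08 without WT replicate 2, but −0.22 in members with at most 5 near-identical gene copies.

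**Figure D4:**
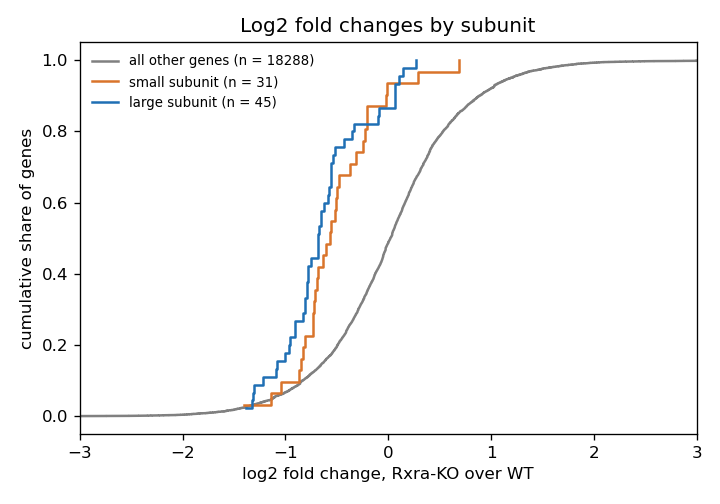
Cumulative share of genes by log2 fold change, Rxra-KO over WT, for the 45 large subunit genes, the 31 small subunit genes and the 18288 other genes in the table. The curves of both subunits lie to the left of the other genes.

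Summed reads gave the same order. Large subunit genes took 2.75% and 3.47% of WT reads and 1.55% and 1.98% of Rxra-KO reads, the Rxra-KO mean being 56.8% of the WT mean. Small subunit genes took 1.51% and 1.73% of WT reads and 0.915% and 1.11% of Rxra-KO reads, and here the Rxra-KO mean was 62.6% of the WT mean. The ratio of large to small subunit reads was 1.82 and 2.01 in WT against 1.70 and 1.78 in Rxra-KO, groups that did not overlap but differed by no more than the WT libraries differed from each other. A few genes dominated these sums. Rpl5, Rpl3, Rpl23 and Rpl4 held 63.4% to 67.9% of large subunit reads across libraries, and Rps3, Rpsa and Rps25 held 59.3% to 62.7% of small subunit reads. Without these genes the ratios were 1.57 and 1.71 in WT against 1.53 and 1.62 in Rxra-KO, and the groups overlapped.

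A minority of members did not share the lower values. Rpl9 had values of 58.3 and 87.3 in WT against 80.6 and 91.9 in Rxra-KO, a difference of 0.27 ± 0.31 (SE) in log2 that was smaller than its error. Rps9 had values of 73.4 and 126 in WT against 94.1 and 96.8 in Rxra-KO, which gave a log2 fold change of −0.01 ± 0.29 (SE). The Rxra-KO values of Rps9 lay between those of the WT libraries. Rpl10a, Rpl13, Rpl23a and Rpl18 had log2 fold changes between 0.06 and 0.11, each smaller than its standard error.

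Paralogs of ribosomal proteins replace the common form in some tissues or states. Of those in the table, Rpl7l1, a nucleolar relative of Rpl7 that acts in large subunit assembly, had values of 43.2 and 52.6 in WT against 48.9 and 57.1 in Rxra-KO. Its log2 fold change was 0.15 ± 0.35 (SE), beside −0.62 ± 0.22 (SE; limma adjusted p = 0.144) for Rpl7. Rpl22l1, which can take the place of Rpl22, had 3 and 9 reads in WT against 1 and 2 in Rxra-KO. Rps27l, a p53 target, had 2 and 10 reads in WT against 4 and 10 in Rxra-KO. Neither of these paralogs had enough reads for a direction. Rpl36al, whose name falls outside the rule, had 24 and 44 reads in WT against 19 and 46 reads in Rxra-KO, which overlapped.

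Levels differed widely among members although their proteins are used in nearly equal numbers. Per kilobase of mRNA (GENCODE M21 lengths), the mean value over the 4 libraries ran from 2.56 in Rps20 to 3670 in Rpl3, a 1430-fold range, with a median of 132. Per kilobase of coding sequence the range was 847-fold and both ends changed, from 8.20 in Rps26 to 6946 in Rpl5, with Rps20 at 26.6 and Rpl3 at 4102. Rpl5 stood at 3026 per kilobase, Rpl23 at 2694 and Rps25 at 2663, while Rps26 stood at 4.16, Rpl37 at 8.12 and Rplp2 at 9.94. The medians were 143 per kilobase for large and 116 for small subunit genes. Members have many near-identical processed copies in the genome, and reads shared with such copies may be divided or dropped when they are assigned. Counting GENCODE M21 genes of at least 90% identity over at least 80% of the coding sequence, members had a median of 8 copies and up to 77, for Rpl21, and 3 members, Rpl8 and Rps3 among them, had none. Across the 76 members the Spearman correlation of the number of copies was 0.17 with the level per kilobase and −0.12 with the log2 fold change. The level per kilobase had a correlation of 0.28 with mRNA length and −0.21 with the log2 fold change. Coding length had a correlation of 0.37 with the level per kilobase of coding sequence. All are descriptions over genes of the same 4 libraries.

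Such copies may make levels and fold changes of single members uncertain, which was not tested, and members were also divided by the number of copies. The 28 members with at most 5 copies had a median log2 fold change of −0.55, with 5 called and 15 with both Rxra-KO libraries below both WT libraries. The 48 members with more copies had a median of −0.68, with 11 called and 40 non-overlapping. Rps3, with no copy, and Rpl4, with 1, were among the called genes. A total of 12 copies had rows of their own, with at most 29 reads in a library and none called. The most abundant, BC004004, resembles Rpl21 and had 12 and 29 reads in WT against 19 and 23 in Rxra-KO.

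**Figure D5:**
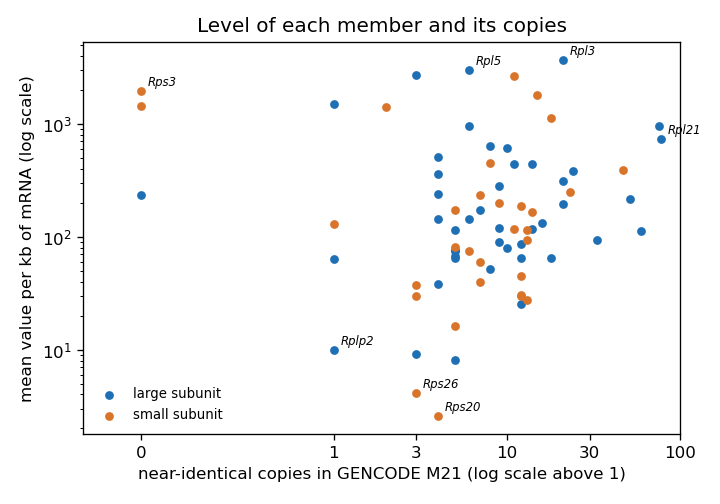
Mean value per kilobase of mRNA over the 4 libraries (log axis) against the number of near-identical gene copies in GENCODE M21 (log axis above 1), 1 point a member. Levels run from 2.56 in Rps20 to 3670 in Rpl3, and both low and high levels occur among members with few copies.

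Other genes of the ribosome and of its production were read from lists. Of the ribosomal proteins with other names, Fau, which makes the small subunit protein eS30, had 74 and 92 reads in WT against 32 and 74 in Rxra-KO, with a log2 fold change of −0.81 ± 0.30 (SE; limma adjusted p = 0.198). Gnb2l1, the older symbol of RACK1, a scaffold on the small subunit, had a log2 fold change of −0.49 ± 0.22 (SE; limma adjusted p = 0.352). Neither gene was called with limma, edgeR or DESeq2, although both had an unadjusted limma p under 0.05. Of 73 mitochondrial ribosomal protein genes (Mrpl and Mrps), whose products serve the separate ribosome of mitochondria, 1 was called lower (Mrps30, a gene picked out after its values were seen), 17.8% had both Rxra-KO libraries below both WT libraries, and the median was −0.03. The values of this second ribosome thus lay near those of all genes, although its genes had far fewer reads (median 17.2 against 69.4).

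Of 27 translation factors and other transcripts with a TOP start, 1 was called lower and 0 higher, 20 had negative fold changes and the median was −0.32. Both Rxra-KO libraries lay below both WT libraries in 13 of the 27, against 19.3% of all genes, and above them in 2. An unadjusted limma p under 0.05 was seen in 4 genes in the lower direction and in 0 in the higher. The called gene was Eef1b2, an exchange factor of elongation factor 1, with 813 and 1699 reads in WT against 502 and 994 in Rxra-KO, giving a log2 fold change of −0.80 ± 0.22 (SE; limma adjusted p = 0.0155). Pabpc1, the poly(A)-binding protein, had a log2 fold change of −0.75 ± 0.24 (SE; limma adjusted p = 0.0645). Eef1a1 and Eef2, the main elongation factors, had log2 fold changes of −0.13 and −0.15 and were not called. The fold changes of the 27 transcripts ranged from −1.69 in Snhg6 to 1.03 in Btf3, neither of which was called (limma adjusted p = 0.398 and 0.494). Both ends rest on few reads, 9 and 6 in WT against 2 and 1 in Rxra-KO for Snhg6, and 11 and 7 against 18 and 23 for Btf3. With edgeR and with DESeq2, 2 of the 27 were called.

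Genes that make ribosomes showed few calls. Of 61 assembly factors, 1 was called lower and 0 higher, and the median was 0.07. The called gene was Npm1, a nucleolar chaperone, with 867 and 1803 reads in WT against 560 and 1066 in Rxra-KO, giving a log2 fold change of −0.76 ± 0.22 (SE; limma adjusted p = 0.0268). Of 20 genes of RNA polymerase I and rRNA transcription, 0 were called in either direction with limma, edgeR or DESeq2 and 1 had an unadjusted limma p under 0.05 in the lower direction. In this list 15 genes had negative fold changes and the median was −0.31. Of 21 genes of mTORC1 and MYC control and of 20 genes of ribosome quality control, 0 were called with any of these tools, with medians of 0.08 and −0.06, and an unadjusted limma p under 0.05 was seen in 0 and in 2 genes, both of the latter in the higher direction.

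Proliferation genes moved in the same libraries. Of 22 genes, 8 were called lower and 0 higher, the median log2 fold change was −1.04, and their summed values were 1354 and 2856 in WT against 894 and 825 in Rxra-KO. Mki67, which marks cycling cells, had 275 and 868 reads in WT against 84 and 87 reads in Rxra-KO. WT replicate 2, which was the highest library in 62 ribosomal protein genes, also had the highest sum of proliferation genes. Between the Rxra-KO libraries the order was not shared, the sum of proliferation genes being higher in replicate 1 and the median ribosomal protein gene higher in replicate 2. The part of cycling cells, and of the shift in macrophage markers described above, in the lower ribosomal protein values was not tested.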

How the data were processed

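Bulk RNA of sorted LPMs was sequenced from 2 WT and 2 Rxra-KO libraries (SMART-Seq v4, without molecular identifiers). The submitters' processing notes name kallisto 0.43.0, limma and the human build GRCh38, which does not match mouse libraries, so the reference used is not settled and gene coordinates are those of RefSeq only. The authors deposited a TMM-normalized signal per gene and library. All of these deposited values (100%, within 0.01 reads) were reads plus 0.5, divided by the TMM-scaled library size, so whole reads were recovered. The 4 totals were 652542, 947372, 629030 and 1047021 reads. Counting error apart, precision is limited by 2 libraries a group. The study's reporting summary says that RNA-seq samples which did not cluster with their group were left out. Whether any were left out here is not stated, and such a choice would make the spread within groups look smaller.

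The main fit was limma 3.58.1 (R 4.3.3) on log2(value + 1) with a mean-variance trend, over all 4 libraries and 18364 genes, without covariates, and two-sided with Benjamini-Hochberg adjustment. The trend over genes entered each gene's variance with 227 prior degrees of freedom, against 2 residual degrees of freedom from the gene's own libraries. Standard errors and p-values of this fit therefore reflect mostly genes of similar level. The filter of a value of at least 1 in 2 libraries removed 0 genes. edgeR 4.0.16 (quasi-likelihood), DESeq2 1.42.0 and voom on the recovered reads, other scalings, pseudocounts, filters and leaving out each library were alternatives. The scripts were tested on simulated data. Copies were found with BLAST 2.17.0 against GENCODE M21 transcripts. Replicate numbers come from the sample titles.

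Members and lists were chosen with earlier results of these data known. The genes named were the 6 called members with the largest changes in each subunit, paralogs, stalk genes, Rpl5, Rpl11, Rps6, Rpsa, Rps27a, Rpl22 and Rpl3, the highest and lowest members, the 3 farthest against their subunit's direction, Fau, and called genes of the lists. Some genes that this rule names are not reported here. Other members named were chosen after their values were seen. Marker lists of T cells, mast cells, neutrophils, dendritic cells, eosinophils, mesothelial cells and erythroid cells had summed values, in the order WT and Rxra-KO, of 117, 109, 119 and 98.3 for T cells (1 of 9 genes called higher), 43.9, 40.1, 39.1 and 28.8 for mast cells, 112, 105, 107 and 110.2 for neutrophils, 93.9, 97.6, 221 and 249 for dendritic cells (2 of 10 called higher), 96.9, 85.7, 75.3 and 89.4 for eosinophils, 71.2, 94.4, 57.2 and 78.5 for mesothelial cells and 7.57, 4.34, 1.51 and 11.9 for erythroid cells. Listed genes without a row were not analysed here.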

Additional observations from a re-analysis of the deposited data

How the results depend on the processing

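The median log2 fold change of the ribosomal protein genes stayed negative under every alternative run (−0.84 to −0.47) and the share of reads was the same without paralogs. The 16 calls depended on the settings. Without a mean-variance trend, limma called 0 members and 0 of all genes, and an unadjusted p under 0.05 was seen in 6 members (7.89%) and 1579 genes (8.60%), so that the members' share was no larger than that of all genes. At an adjusted p under 0.01, 8 members and 296 of all genes were called, and 5 of the 28 members with at most 5 copies were called, a grouping chosen after seeing the data. DESeq2 called 235 genes in place of 421, and edgeR 446. Leaving out 1 library gave between 1 (without WT replicate 2) and 23 (without Rxra-KO replicate 2) member calls, with 3 without Rxra-KO replicate 1, and 236 (without WT replicate 2) to 377 calls over all genes, with 244 without Rxra-KO replicate 1. The large minus small difference of −0.123 was −0.062 in members with at least 100 reads, −0.216 in those with at most 5 copies, and −0.113 to −0.066 with 1 library left out. The lone sample of a group is then assumed to vary like the other group.

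Signs turned in members that were not called. With 1 library left out, the log2 fold change ranged from −0.394 (without WT replicate 1) to 0.978 in Rps27l, from −0.021 (without WT replicate 1) to 0.554 in Rpl9, from −1.371 to 1.169 in Rplp2 (without WT replicate 2; 0.565 without Rxra-KO replicate 2), from −0.726 to 0.228 in Rps27a (without WT replicate 2) and from −0.67 to 0.266 in Rps26 (without Rxra-KO replicate 2; 0.074 without WT replicate 2). Rplp2 was at 0.048 with a pseudocount of 0.1. The cause was not tested.

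Both groups carry replicate numbers 1 and 2, but nothing ties them to a litter or day, and same-numbered deviations had r = 0.0629 over 10049 genes in 2 pairs. The fit with a replicate block called 24 members, 16 of them called without it, and 540 genes in all, and its median was −0.651 and its large minus small difference −0.123.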
